A study of Mus musculus with 12 samples.

Results

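Endocannabinoid receptor and enzyme genes were examined in the brainstem of neonatal mice, as the 9 genes *Cnr1*, *Cnrip1*, *Dagla*, *Daglb*, *Mgll*, *Abhd6*, *Abhd12*, *Napepld*, and *Faah*. They were chosen by symbol, and all 9 were found among the 55418 genes of the count table. The libraries came from 12 outbred CFW mice (Swiss Webster) at P15, with 1 library for each mouse: 3 females and 3 males that received saline, and 3 females and 3 males that received morphine. Morphine mice had received repeated subcutaneous morphine sulfate and saline mice the vehicle from the first postnatal day until the day before collection, so the tissue was taken during spontaneous withdrawal. The mice carried no engineered allele, and dam, a covariate of the study, is not among the labels and was not used here.

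Endocannabinoids are lipid messengers that neurons make on demand and that act backward across the synapse. *Cnr1* encodes the CB1 receptor, a presynaptic receptor that lowers transmitter release, and *Cnrip1* encodes a protein that binds the tail of CB1. The endocannabinoid 2-arachidonoylglycerol (2-AG) is made by the diacylglycerol lipases of *Dagla* and *Daglb* and is broken down mainly by monoacylglycerol lipase (*Mgll*), with smaller parts for *Abhd6* and *Abhd12*. The endocannabinoid anandamide is released from its precursor by the phospholipase of *Napepld*, among other routes, and is broken down by fatty acid amide hydrolase (*Faah*). In the brainstem, CB1 takes part in the control of pain, vomiting, and autonomic reflexes.

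The libraries held between 27850565 and 48097947 counts on genes. In the list of brainstem markers, *Slc6a5*, the glycine transporter of glycinergic neurons, lay between 468 and 636 in counts scaled to a common library size (CPM) and *Hoxb5* between 24.0 and 38.6 CPM. *Hoxc9*, *Hoxc10*, and *Hoxa10*, which mark the spinal cord below the neck, had at most 1 count in a library, *Hoxd10* at most 3, and *Hoxd9* at most 16 (0.465 CPM), although the deposited text on RNA extraction names spinal cords. The forebrain markers *Emx1* and *Tbr1* were at most at 0.783 CPM, and *Neurod6* lay between 7.04 and 13.2 CPM. *Xist*, an RNA of the inactive X chromosome, was at 380.4 CPM and the Y-linked *Ddx3y* at 12.8 CPM for the library labelled morphine male 6, against at most 2.65 and at least 114.9 CPM in the other males. The saline males stood apart from one another: on the leading principal component of 12140 genes, which held 68.6% of the variance, saline males 1 and 2 were at 43.1 and 49.4 and saline male 3 was at -46.3. Results for the 9 genes in males are given below with and without these libraries, and those of the pathway lists are given without them where that changed whether a gene passed.

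The promoter windows of the receptor gene and of the main 2-AG hydrolase are shown because these genes had the opposite course over the libraries in the results below. Both come from RefSeq on GRCm38.p6, on the plus strand, with 250 bases before and 50 bases from the start of transcription. RefSeq windows were matched for 7 of the 9 genes. Capitals mark the GC box GGGCGG or its reverse complement CCGCCC.
Cnr1 (chr4:33924394-33924693): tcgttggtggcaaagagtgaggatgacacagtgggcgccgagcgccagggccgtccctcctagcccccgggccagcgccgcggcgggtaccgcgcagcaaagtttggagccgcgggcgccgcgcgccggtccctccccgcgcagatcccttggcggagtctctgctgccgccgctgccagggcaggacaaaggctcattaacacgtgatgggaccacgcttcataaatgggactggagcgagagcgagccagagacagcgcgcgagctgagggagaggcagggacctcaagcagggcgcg
Mgll (chr6:88724162-88724461): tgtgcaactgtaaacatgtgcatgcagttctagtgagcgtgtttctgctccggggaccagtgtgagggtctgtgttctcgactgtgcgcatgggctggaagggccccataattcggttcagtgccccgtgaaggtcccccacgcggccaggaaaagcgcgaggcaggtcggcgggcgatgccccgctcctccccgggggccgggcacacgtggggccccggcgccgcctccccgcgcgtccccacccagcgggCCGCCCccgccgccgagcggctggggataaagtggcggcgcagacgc
The *Cnr1* window held 69.0% G and C, 33 CpG pairs, and 0 GC boxes, while the *Mgll* window held 70.0% G and C, 32 CpG pairs, and 1 GC box. Over 32851 windows of the same length, the median was 52.7% G and C with 7 CpG pairs, and 35.7% held at least 1 GC box on either strand. Both windows were thus rich in G and C, and the 2 genes were less alike in their transcripts: the longest annotated transcript had 44.9% G and C for *Cnr1* and 55.3% for *Mgll*, against a median of 49.2% over the genes tested.

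Levels of different genes were compared per length, as CPM per kb of annotated exon. *Abhd12*, a serine hydrolase that also acts on lysophosphatidylserine, was highest at 69.5 ± 6.17 CPM per kb (SD, n = 12), and no library of another gene reached its lowest library. *Mgll* followed at 24.7 ± 6.36 CPM per kb (SD, n = 12). *Abhd6*, a hydrolase at the postsynaptic membrane, was at 15.8 ± 1.38 CPM per kb (SD, n = 12). *Cnr1* was at 14.6 ± 2.12 CPM per kb (SD, n = 12), and the ranges of *Mgll*, *Abhd6*, and *Cnr1* overlapped from each gene to the next. *Abhd6* was above *Cnr1* in 8 of 12 libraries. *Cnrip1*, at 9.87 ± 1.47 CPM per kb (SD, n = 12), overlapped with *Cnr1* in range but was below it in all 12 libraries. *Napepld* was at 4.79 ± 0.279 CPM per kb (SD, n = 12), and *Dagla* had the same mean with a wide spread, at 4.79 ± 2.40 CPM per kb (SD, n = 12), so that *Dagla* but not *Napepld* overlapped with *Cnrip1* in range. *Faah* was at 3.63 ± 0.768 CPM per kb (SD, n = 12), and *Daglb*, the lowest, was at 1.62 ± 0.435 CPM per kb (SD, n = 12) with no overlap with *Faah*. The middle of this order depends on the length used. With the longest transcript in place of all annotated exons, *Cnrip1* moved from rank 5 to rank 3 and *Faah* from rank 8 to rank 6, while *Abhd12*, *Mgll*, and *Daglb* kept ranks 1, 2, and 9.

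**Figure D1:**
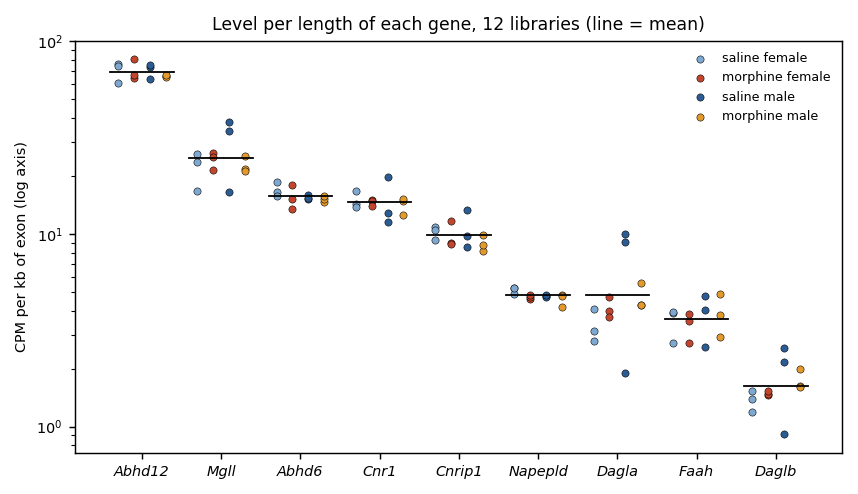
Level per length of the 9 genes in the 12 libraries, as CPM per kb of exon on a log axis; points are libraries colored by group and lines are means over 12 libraries. *Abhd12* lies above all other genes at a mean of 69.5, *Daglb* lies lowest at 1.62, and *Dagla* spreads most.

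Within each library, the sum of *Dagla* and *Daglb* was small beside that of *Mgll*, *Abhd6*, and *Abhd12*. The ratio of these CPM sums lay between 0.0853 and 0.0970 in saline females, between 0.0903 and 0.118 in morphine females, and between 0.121 and 0.144 in morphine males. In saline males it ran from 0.0656 to 0.183, a range that held all libraries of the other groups. In CPM per kb the ratio was lower, from 0.0294 to 0.0944, and both ends were again saline males. *Dagla* exceeded *Daglb* in CPM per kb in each library, by 2.09-fold at the lowest and 4.61-fold at the highest, and both extremes were saline males. For anandamide, the side of 1 on which the ratio of *Napepld* to *Faah* fell depended on length. It ran from 0.978 to 1.92 in CPM per kb and from 0.494 to 0.971 in CPM, and it overlapped among the 4 groups on both scales. The ratio of *Cnrip1* to *Cnr1* lay between 0.553 and 0.844 in CPM per kb and overlapped among the 4 groups as well.

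The genes for the receptor and its partner came first in the comparison of morphine with saline. *Cnr1* (ENSMUSG00000044288, chromosome 4, 33924593 to 33948831 on GRCm38) was at 91.9, 88.9, and 107.6 CPM in saline females 4, 5, and 6 and at 97.1, 96.0, and 90.1 CPM in morphine females 1, 2, and 3. In saline males 1, 2, and 3 it was at 82.5, 74.2, and 127.0 CPM, and in morphine males 4, 5, and 6 at 95.5, 97.9, and 81.0 CPM. The groups overlapped in both sexes, and the lowest and the highest library were both saline males. In the comparison of all 12 mice with sex as a covariate (sex-combined), its log2 fold change, morphine over saline, was -0.04 (standard error 0.12; 95% interval -0.30 to 0.22; adjusted *p* = 1.00 in edgeR's quasi-likelihood test). *Cnrip1* (ENSMUSG00000044629, chromosome 11, 17051586 to 17079371) was at 37.4, 43.4, and 41.8 CPM in saline females and at 35.8, 35.7, and 46.6 CPM in morphine females. It was at 34.4, 38.9, and 53.1 CPM in saline males 1, 2, and 3 and at 32.8, 39.4, and 35.0 CPM in morphine males. Saline male 3 was again the highest library, and the groups overlapped in both sexes. *Cnrip1* had the smallest *p* of the 9 genes in the sex-combined comparison, at -0.15 on the log2 scale (standard error 0.12; unadjusted *p* = 0.241, adjusted *p* = 1.00 in edgeR's quasi-likelihood test).

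Among the genes of 2-AG synthesis, *Dagla* (ENSMUSG00000035735, chromosome 19, 10245265 to 10304877, minus strand), which makes most of the 2-AG of synapses, was at 23.4, 18.1, and 16.1 CPM in saline females and at 27.1, 22.9, and 21.3 CPM in morphine females. It was at 52.2, 57.1, and 11.0 CPM in saline males 1, 2, and 3 and at 24.6, 24.7, and 32.1 CPM in morphine males. The 3 morphine males thus lay between the saline males, of which 2 were the highest and 1 the lowest of all 12 libraries. *Daglb* (ENSMUSG00000039206, chromosome 5, 143464584 to 143505942), the second diacylglycerol lipase, was at 14.7, 13.3, and 11.4 CPM in saline females and at 13.95, 14.1, and 14.6 CPM in morphine females. It was at 24.4, 20.6, and 8.75 CPM in saline males 1, 2, and 3 and at 15.6, 15.3, and 18.9 CPM in morphine males. The saline males again held both extremes. In the sex-combined comparison, the log2 fold change was -0.13 (standard error 0.32; 95% interval -0.82 to 0.56) for *Dagla* and 0.0027 (standard error 0.195; 95% interval -0.42 to 0.42) for *Daglb*. Of the exons of *Daglb*, 2309 bp overlap with *Rac1* on the opposite strand, as do 199 bp of *Cnrip1* with *Plek* and 167 bp of *Mgll* with *Gm26588*, and whether the counting used the strand is not given in the sources used here, so reads in these stretches are uncertain.

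Among the hydrolases of 2-AG, *Mgll* (ENSMUSG00000033174, chromosome 6, 88724412 to 88828360) was at 132.6, 119.3, and 85.1 CPM in saline females and at 134.2, 109.4, and 127.9 CPM in morphine females. It was at 174.8, 193.6, and 83.5 CPM in saline males 1, 2, and 3 and at 109.8, 108.1, and 128.7 CPM in morphine males. As for *Dagla* and *Daglb*, the morphine males lay within the range of the saline males. The other hydrolases were steadier. *Abhd6* (ENSMUSG00000025277, chromosome 14, 8002902 to 8056763) lay between 31.9 and 43.9 CPM over the 12 libraries, and its 3 saline males were at 35.7, 37.6, and 36.4 CPM. *Abhd12* (ENSMUSG00000032046, chromosome 2, 150832493 to 150904741, minus strand) lay between 171.0 and 227.4 CPM over the 12 libraries. The 3 morphine males of *Abhd12* were close together, at 187.6, 183.4, and 189.1 CPM, and lay within the range of the saline males. The sex-combined log2 fold change was -0.12 (standard error 0.19) for *Mgll*, -0.08 (standard error 0.08) for *Abhd6*, and -0.05 (standard error 0.08) for *Abhd12*.

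Of the anandamide genes, *Napepld* (ENSMUSG00000044968, chromosome 5, 21662901 to 21701396, minus strand) had the narrowest spread of the 9 genes. It was at 20.8, 19.3, and 20.7 CPM in saline females and at 18.2, 18.5, and 19.1 CPM in morphine females, and these groups did not overlap. It was at 18.9, 18.6, and 19.1 CPM in saline males and at 16.5, 19.0, and 18.8 CPM in morphine males, and these groups overlapped. The sex-combined log2 fold change of *Napepld* was -0.09 (standard error 0.08). An exact two-sided permutation test over the 6 morphine and 6 saline mice gave *p* = 0.0390 for this gene, where 0.00216 is the smallest *p* possible, while edgeR's quasi-likelihood test gave an unadjusted *p* of 0.252 and an adjusted *p* of 1.00. It was 1 of 9 such permutation tests, and those of the other 8 genes gave *p* of at least 0.258. *Faah* (ENSMUSG00000034171, chromosome 4, 115967145 to 116017926, minus strand) lay between 20.3 and 38.1 CPM, with the lowest library in saline male 3 and the highest in morphine male 6. Combined over the sexes it was at -0.02 on the log2 scale (standard error 0.17). The groups overlapped in both sexes.

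**Figure D2:**
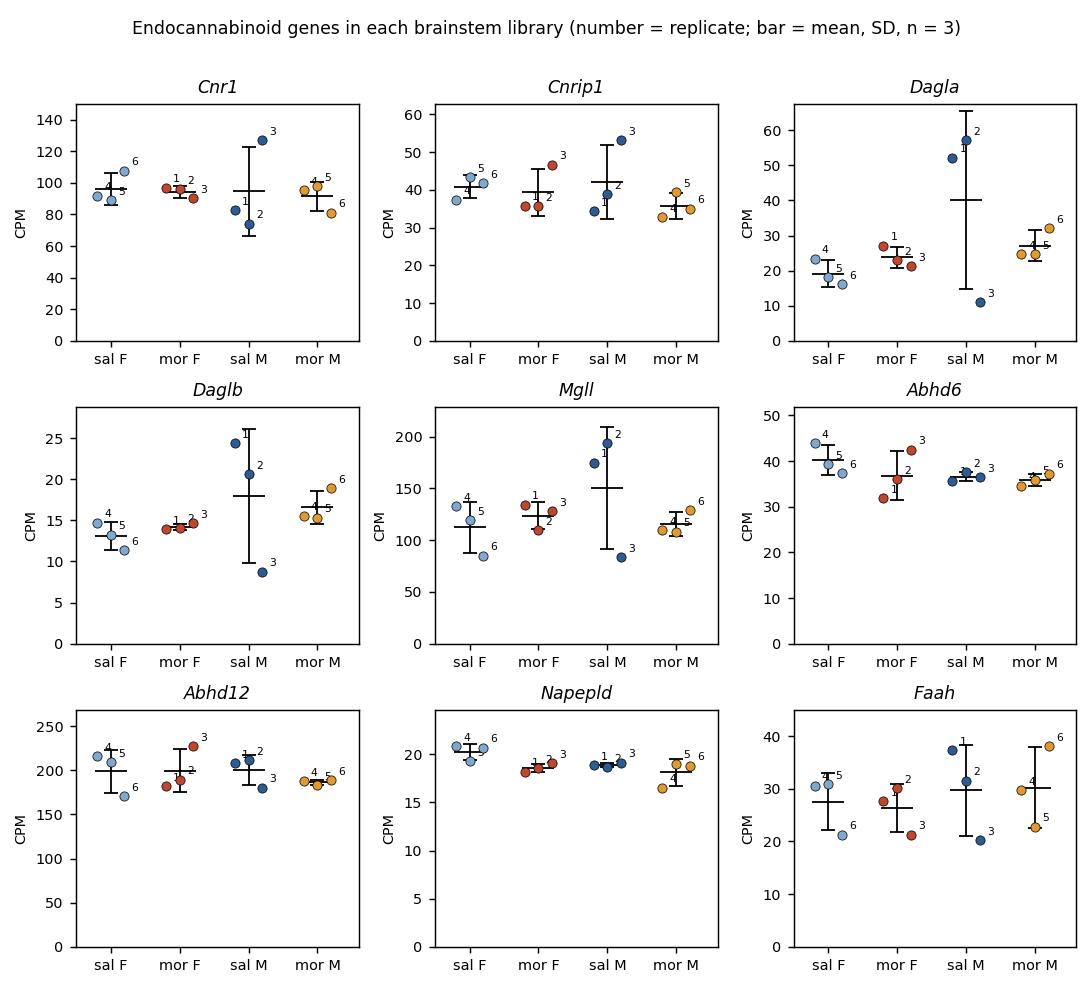
CPM of each gene in each library, by group; numbers beside points are replicate numbers, and bars give the mean and SD of 3 mice. For *Dagla*, *Daglb*, and *Mgll*, saline males 1 and 2 are the highest of the 12 libraries and saline male 3 the lowest, while *Abhd6* and *Napepld* differ little among saline males.

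None of the 9 genes passed both thresholds (unadjusted *p* under 0.05 and absolute log2 fold change over 0.26) in the sex-combined comparison, where 1.19% of 18608 genes passed. Of the 9, 8 had a log2 fold change below 0 and 1 above 0, against 5 below and 4 above with scaling by total counts. Their median was -0.08 beside -0.02 over all genes tested. In none of the 5 comparisons reported here did the quasi-likelihood test of edgeR give a gene of the 9 an unadjusted *p* under 0.05. The Wald test of DESeq2 gave 1 that passed, *Dagla* between the saline sexes, where 5% of all genes passed with that test. The levels of the 6 morphine and 6 saline mice did not overlap for 0 of the 9, against 0.0376% of all genes.

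In females, 0 of the 9 genes passed both thresholds, against 1.81% of 18109 genes. The smallest unadjusted *p* was that of *Dagla*, which was higher with morphine by 0.30 on the log2 scale (standard error 0.15; 95% interval -0.03 to 0.64; unadjusted *p* = 0.0720, adjusted *p* = 1.00 in edgeR's quasi-likelihood test). It passed both thresholds without saline female 4, at 0.47 (adjusted *p* = 0.582 in the same test), and without morphine female 3, at 0.38 (adjusted *p* = 1.00), where 7.95% and 1.52% of all genes passed, but not in the other 4 fits that left out 1 female. *Daglb* and *Mgll* were also above 0, at 0.11 (standard error 0.12) and 0.14 (standard error 0.15), and the other 6 genes were below 0, of which *Abhd12* turned to above 0 with scaling by total counts. The median was -0.03 beside -0.01 over all genes. *Napepld*, which averaged 18.6 ± 0.435 CPM (SD, n = 3) with morphine and 20.3 ± 0.864 CPM (SD, n = 3) with saline, was the 1 gene of the 9 whose groups did not overlap, against 5.67% of all genes. It was at -0.13 on the log2 scale (standard error 0.10; unadjusted *p* = 0.214 in edgeR's quasi-likelihood test), and the exact permutation test gave *p* = 0.1, the smallest that 3 mice against 3 allow.

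In males, 0 of the 9 genes passed both thresholds, against 2.99% of 18166 genes, and the groups did not overlap for 0 of the 9, against 8.86% of all genes. All 9 had a log2 fold change below 0, with a median of -0.13 beside -0.06 over all genes, but with scaling by total counts *Cnr1*, *Abhd6*, *Napepld*, and *Faah* were above 0 and the median over all genes moved to 0.06. *Dagla* had the lowest value, -0.59 (standard error 0.54; 95% interval -1.87 to 0.69), followed by *Mgll* at -0.41 (standard error 0.30; 95% interval -1.12 to 0.30) and *Cnrip1* at -0.27 (standard error 0.20; 95% interval -0.73 to 0.20). The saline males had the wider spread, and *Dagla* was at 40.1 ± 25.4 CPM (SD, n = 3) in saline males and 27.1 ± 4.33 CPM (SD, n = 3) in morphine males. *Faah* was nearest to 0, at -0.00087 (standard error 0.281), and it ran from -0.22 to 0.22 when 1 male was left out, with the lowest value without morphine male 6.

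**Figure D3:**
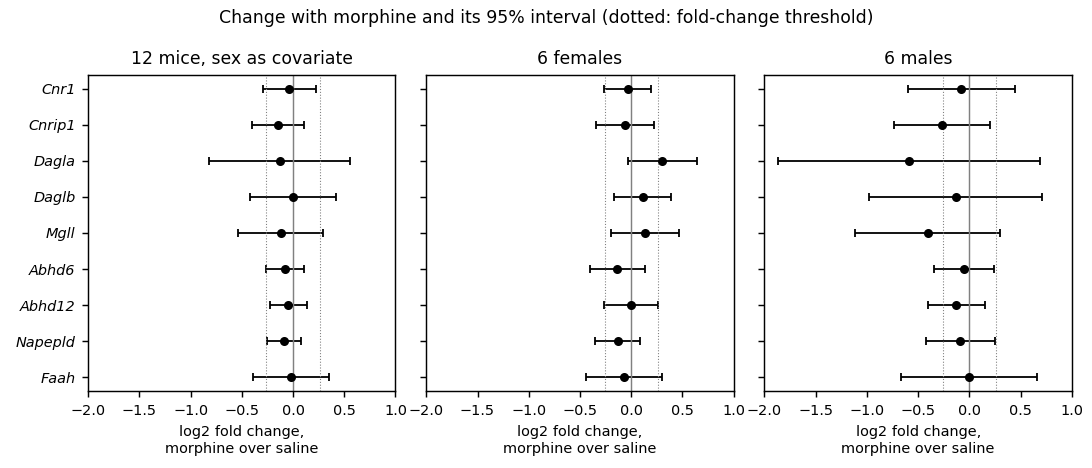
Log2 fold change of each gene, morphine over saline, with its 95% interval from edgeR's quasi-likelihood fit, in all 12 mice, in 6 females, and in 6 males; dotted lines mark the fold-change threshold. Every interval includes 0, and the widest is that of *Dagla* in males, from -1.87 to 0.69.

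The result in males turned on which saline males were used. Without saline male 3, *Dagla* fell by 1.00 on the log2 scale (standard error 0.15; adjusted *p* = 0.0108), *Mgll* fell by 0.67 (standard error 0.12; adjusted *p* = 0.0157), and *Daglb* fell by 0.43 (standard error 0.15; adjusted *p* = 0.0984), all in edgeR's quasi-likelihood test and all past both thresholds. In that fit 28.6% of all 18652 genes passed. Without saline males 1 and 2, the direction of these genes turned: *Dagla* was higher in morphine males by 1.27 (standard error 0.23), *Daglb* by 0.89 (standard error 0.22), and *Mgll* by 0.43 (standard error 0.17). In that fit *Cnr1* was lower by 0.51 and *Cnrip1* by 0.61 on the log2 scale, and all 5 passed both thresholds, with adjusted *p* from 0.0715 to 0.127 in the same test, where 31.1% of all 19497 genes passed. That setting was added after the data were seen, and it leaves 1 saline male, which is assumed to vary like the other mice. It also moved the sex-combined values of *Dagla* from -0.13 to 0.61 and of *Daglb* from 0.0027 to 0.37, both past the thresholds, where 11.7% of all genes passed. Without morphine male 6, 0 of the 9 genes passed in males, where 2.47% of all genes passed. The median of the 9 was -0.22 beside -0.06 over all genes, with *Dagla* at -0.74, *Mgll* at -0.51, and *Faah* at -0.22. *Abhd6*, *Abhd12*, *Napepld*, and *Faah* did not pass in males under either choice.

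**Figure D4:**
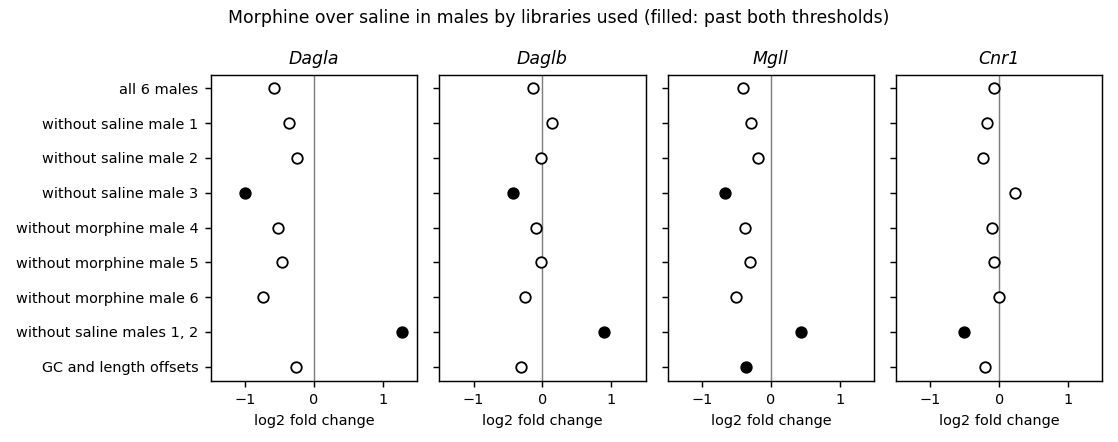
Log2 fold change of *Dagla*, *Daglb*, *Mgll*, and *Cnr1* in males, morphine over saline, for all 6 males, for each male left out, without saline males 1 and 2, and with offsets for GC content and length; filled points pass both thresholds. *Dagla* runs from -1.001 without saline male 3 to 1.27 without saline males 1 and 2.

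The difference between the male and the female change was tested as an interaction, male change minus female change. None of the 9 genes passed both thresholds, against 2.94% of 19027 genes, and 6 were below 0 and 3 above. *Dagla* had an interaction of -0.87 (standard error 0.60; unadjusted *p* = 0.173) and *Mgll* of -0.53 (standard error 0.37; unadjusted *p* = 0.175), both with an adjusted *p* of 0.985 in edgeR's quasi-likelihood test. Without saline male 3, the interaction of *Dagla* was -1.35 (adjusted *p* = 0.00801), that of *Mgll* -0.84 (adjusted *p* = 0.0273), and that of *Daglb* -0.58 (adjusted *p* = 0.0736), all past both thresholds, where 24.1% of all genes passed. Without saline males 1 and 2 the interaction was 1.00 for *Dagla* and 0.81 for *Daglb*, so no direction of a sex difference holds for these genes across the choice of saline males. In that fit, which leaves 1 saline male, the interaction of *Cnr1* went from -0.02 to -0.45 and that of *Cnrip1* from -0.19 to -0.52.

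Between saline males and saline females, 0 of the 9 genes passed both thresholds, against 2.47% of 18122 genes. *Dagla* had the largest difference, 1.10 on the log2 scale, male minus female (standard error 0.54; 95% interval -0.16 to 2.36; unadjusted *p* = 0.0776, adjusted *p* = 0.987 in edgeR's quasi-likelihood test). Without saline male 3 it was 1.55 (adjusted *p* = 0.000480), with *Daglb* at 0.82 (adjusted *p* = 0.00337) and *Mgll* at 0.75 (adjusted *p* = 0.0102), and 37.3% of all 18692 genes passed. With the Wald test of DESeq2 *Dagla* was at 1.09 (adjusted *p* = 0.992), and with no filter on low counts, at 1.14 (adjusted *p* = 0.786). It passed both thresholds in each, where 5% and 5.86% of all genes passed. The levels did not overlap for *Napepld* alone among the 9, at 18.9 ± 0.233 CPM (SD, n = 3) in males and 20.3 ± 0.864 CPM (SD, n = 3) in females, against 4.3% of all genes.

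The 9 genes differed in their spread over libraries. From the lowest to the highest library, *Dagla* spanned 2.38 on the log2 scale, a range at percentile 94.5 of 18608 genes, *Daglb* spanned 1.47, and *Mgll* spanned 1.21, against a median of 0.91. *Faah*, *Cnr1*, and *Cnrip1* spanned 0.91, 0.78, and 0.70. *Abhd6*, *Abhd12*, and *Napepld* spanned 0.46, 0.41, and 0.33, of which the last is at percentile 4.80. Saline males 1 and 2 exceeded saline male 3 by 4.76-fold and 5.22-fold for *Dagla*, 2.79-fold and 2.36-fold for *Daglb*, 2.09-fold and 2.32-fold for *Mgll*, and 1.84-fold and 1.56-fold for *Faah*. They were at 0.650 and 0.584 of saline male 3 for *Cnr1*, and at 0.646 and 0.732 for *Cnrip1*. The receptor and its partner were thus low in the saline males in which the genes of 2-AG synthesis, *Mgll*, and *Faah* were high, while *Abhd6* and *Napepld* differed by no more than 1.03-fold in these pairs.

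The course of these genes over all 12 libraries was similar. Across libraries, log2 CPM of *Dagla* correlated with that of *Daglb* (Pearson *r* = 0.96, Spearman ρ = 0.87) and of *Mgll* (*r* = 0.92, ρ = 0.78). *Cnr1* ran against them, with *r* = -0.87 and ρ = -0.63 for *Dagla*, *r* = -0.90 and ρ = -0.72 for *Daglb*, and *r* = -0.89 and ρ = -0.78 for *Mgll*. In the 9 libraries without the saline males, *r* was 0.89 for *Dagla* with *Daglb*, 0.62 for *Dagla* with *Mgll*, and -0.56, -0.78, and -0.73 for *Cnr1* with *Dagla*, *Daglb*, and *Mgll*. These values describe 12 libraries that share a lane and differ in the trends given next. The pattern was not particular to these genes: of 11679 genes with at least 5 CPM, 741 correlated with *Cnr1* above 0.9. The 5 genes most like *Cnr1* were *Slmap*, *Gm49336*, *Nr1d2*, *Lrch2*, and *Elavl2*, each with *r* = 0.98 over 12 libraries. For *Cnrip1*, 7 genes exceeded 0.9, with *Leprotl1* highest at 0.93, followed by *Fra10ac1*, *Gm4430*, *Ywhaq*, and *Plekha2*.

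The libraries also differed by the GC content of transcripts. In each library, the deviation of genes from their mean over 12 libraries was correlated with GC content across 12140 genes, and *r* was 0.71 and 0.79 in saline males 1 and 2, 0.73 in morphine male 6, -0.81 in saline male 3, and -0.69 in saline female 6. Between saline males 1 and 2 and saline male 3, the difference correlated with GC content at *r* = 0.83, and 18.3% of these genes were higher in saline males 1 and 2 by over 1 on the log2 scale. The longest transcript had 58.8% G and C for *Dagla*, the highest of the 9, 52.4% for *Faah*, 49.9% for *Daglb*, 46.5% for *Cnrip1*, and 44.9% for *Cnr1*, the lowest. *Abhd12*, with 55.0%, was steady nonetheless, and so were *Abhd6* with 48.4% and *Napepld* with 45.8%. After loess offsets for GC content and length, the range from the lowest to the highest library went from 5.19-fold to 1.92-fold for *Dagla*, from 2.32-fold to 1.44-fold for *Mgll*, and from 1.71-fold to 1.36-fold for *Cnr1*. It stayed wide for *Daglb*, from 2.77-fold to 2.65-fold, and became wider for *Abhd12*, from 1.33-fold to 1.56-fold, and for *Napepld*, from 1.26-fold to 1.37-fold. The median range over all genes went from 0.91 to 0.67 on the log2 scale. With these offsets, *Mgll* in males fell by 0.36 on the log2 scale (adjusted *p* = 0.163 in edgeR's quasi-likelihood test) and *Cnrip1* by 0.38 (adjusted *p* = 0.173), and both passed the thresholds. Of all genes 13.3% passed, 2019 of 2422 of them lower in morphine males, and the median over all genes was -0.14. *Dagla* did not pass with them. The part of GC content in the differences between groups was not tested further.

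**Figure D5:**
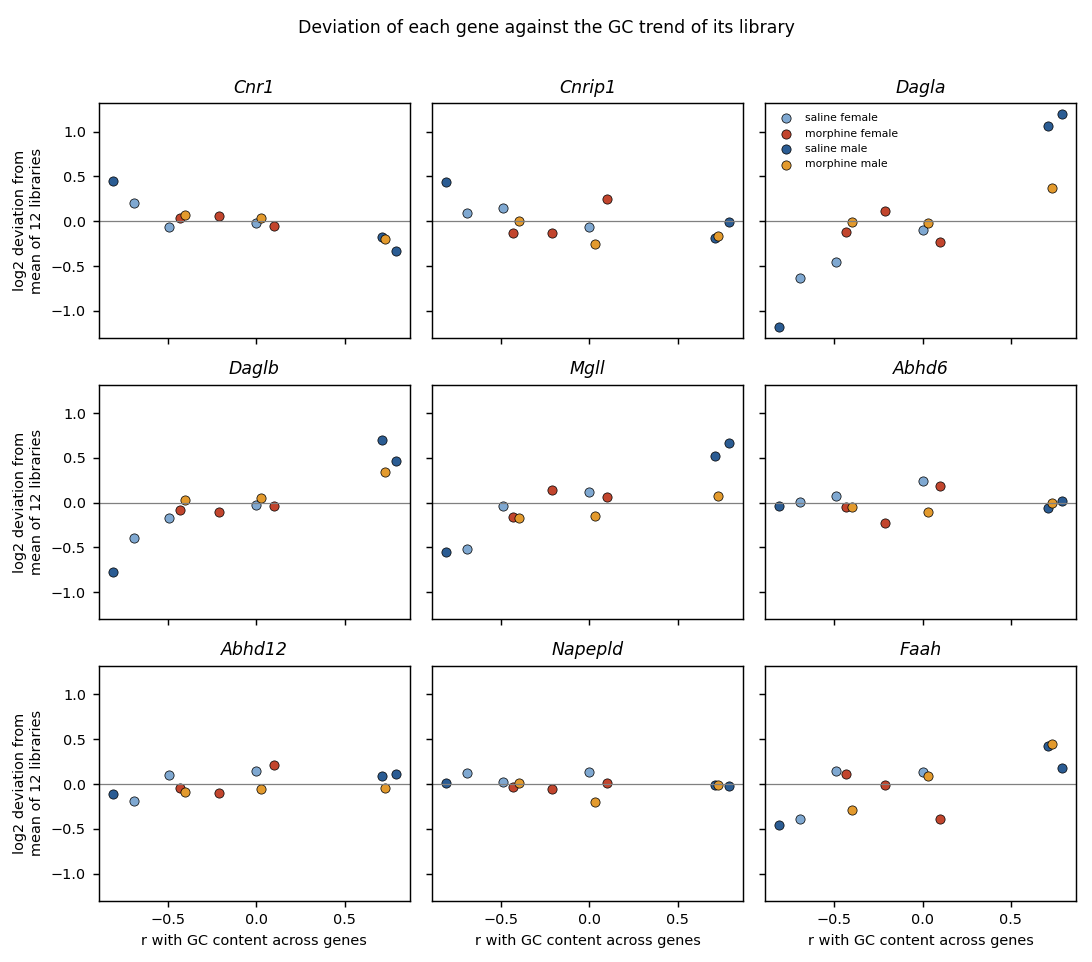
Log2 deviation of each gene from its mean over 12 libraries (y axis) against the correlation of its library with GC content across genes (x axis); points are libraries colored by group. *Dagla*, *Daglb*, *Mgll*, and *Faah* rise from left to right, *Cnr1* falls, and *Abhd6*, *Abhd12*, and *Napepld* show little slope.

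Markers of cell types were compared between saline and morphine males, in which these genes varied most. The summed level of 5 neuronal markers lay between 4244 and 5288 CPM in saline males, with the highest value in saline male 3, and between 3974 and 4067 CPM in morphine males. The sum of 5 astrocyte markers lay between 2424 and 2619 CPM in saline males and between 2268 and 2310 CPM in morphine males. Neither sum overlapped between these groups, but 0 of the 5 neuronal and 0 of the 5 astrocyte markers passed both thresholds in edgeR's quasi-likelihood test. Among all genes tested in males, 2.99% passed and the groups did not overlap for 8.86%. Narrower lists of neuronal markers did overlap. The sum for GABAergic and glycinergic neurons lay between 924.3 and 1135 CPM in saline males and between 1012 and 1122 CPM in morphine males. For glutamatergic neurons it lay between 403 and 531.9 CPM in saline males and between 408.8 and 461.8 CPM in morphine males. The sum of 5 oligodendrocyte markers lay between 36720 and 55290 CPM in saline males, with the lowest value in saline male 3, and between 31640 and 39900 CPM in morphine males, where *Mobp* alone of the 5 passed both thresholds, lower in morphine males. Higher in morphine males were 3 of 4 cerebellar granule cell markers, whose sum lay between 25.9 and 29.2 CPM in saline males and between 36.3 and 77.1 CPM in morphine males, and 4 of 5 choroid plexus markers, whose sum lay between 265 and 519.4 CPM in saline males and between 414.8 and 839 CPM in morphine males. The part of these cells in the values of the 9 genes was not tested, and in whole tissue a change in the number of cells of a type cannot be told apart from a change in RNA per cell.

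Genes around the 9 were counted in lists of the pathway. Of 24 further endocannabinoid genes, which are other receptors, enzymes, and carriers, 19 were tested in the sex-combined comparison and 0 passed both thresholds. In females, *Fabp7*, a fatty acid carrier of glia, was higher in morphine mice by 0.30 (standard error 0.10; unadjusted *p* = 0.0114), with means of 143 CPM against 115.1 CPM. In males, 1 of 18 was lower and 1 higher: the lipid carrier gene *Scp2* by -0.29 (standard error 0.12; unadjusted *p* = 0.0422), and *Gdpd3*, at a mean of 1.28 CPM against 0.869 CPM, by 0.53 (standard error 0.22; unadjusted *p* = 0.0444). The adjusted *p* of each was 1.00 in edgeR's quasi-likelihood test. *Scp2* also passed in the interaction, at -0.35, as did *Alox12* at 1.07 and *Pla2g4e*, an enzyme that makes anandamide precursors, at 0.55 (adjusted *p* = 0.985 for each in the same test). The level of *Alox12* was low, with group means from 0.295 to 0.498 CPM. In males, *Scp2* passed without saline male 3 but not without saline males 1 and 2 or without morphine male 6, and *Gdpd3* passed in none of these fits. None of the 3 interactions passed without morphine male 6. Without saline male 3, *Alox12* at 1.07 and *Pla2g4e* at 0.35 did not pass in the interaction. *Scp2* did, at -0.38, where 24.1% of all genes passed. Without saline males 1 and 2, the interactions were 1.03 for *Alox12*, 1.00 for *Pla2g4e*, and -0.33 for *Scp2*. None of the further genes passed between the saline sexes.

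Of 16 genes that drive 2-AG synthesis, the receptors and enzymes that lead to diacylglycerol among them, 0 passed in the sex-combined, female, or male comparison. The muscarinic receptor gene *Chrm3* passed in the interaction, at 0.46 (standard error 0.18; adjusted *p* = 0.985 in edgeR's quasi-likelihood test). Of 18 genes for effectors of CB1, 0 passed in the sex-combined comparison or in females and 1 passed in males: *Kcnj6*, a potassium channel opened by Gi/o-coupled receptors, was higher by 0.49 (standard error 0.16; unadjusted *p* = 0.0205, adjusted *p* = 1.00 in the same test). Its means were 7.59 CPM in morphine males, 5.32 CPM in saline males, 5.77 CPM in morphine females, and 6.48 CPM in saline females, and its interaction was 0.68 (standard error 0.23). In males *Kcnj6* was at 0.52 without saline male 3, where it passed, and at 0.47 without saline males 1 and 2 and 0.47 without morphine male 6, where it did not pass. The interaction of *Chrm3* did not pass without morphine male 6, at 0.43. *Gnb2*, a G-protein subunit gene, passed between the saline sexes, at 1.46, male minus female (unadjusted *p* = 0.0498, adjusted *p* = 0.987 in the same test). It was at 1.94 without saline male 3, where 37.3% of all genes passed.

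The study listed 13 genes for the term of retrograde endocannabinoid signaling, and the 9 genes are not among them. The 13 were chosen by their unadjusted *p* for morphine against saline in the males of these same libraries. Their counts and directions below are thus fixed in part by that choice and are not independent evidence. The shares over all genes are no like background for a list chosen this way. In males, 2 of the 13 were higher and 4 lower in morphine mice, where 2.99% of all genes passed. Of the 4 lower, *Ndufc2* was at -0.62 (standard error 0.15), *Ndufc1* at -0.54 (standard error 0.14), and *Ndufb6* at -0.75 (standard error 0.23). The other was the G-protein subunit gene *Gng11*, at -0.49 (standard error 0.16). Their unadjusted *p* lay between 0.00494 and 0.0164, and the adjusted *p* of each was 0.9999 in edgeR's quasi-likelihood test. The 2 higher were *Kcnj6* and *Gabra6*. The 3 Nduf genes encode subunits of mitochondrial complex I and do not make or bind endocannabinoids. Without saline males 1 and 2, *Ndufb6* was at -0.21 and did not pass, while the other 3 of the 4 lower genes did. All 4 passed without saline male 3, where 28.6% of all genes passed, and without morphine male 6, where 2.47% did. In the sex-combined comparison, *Gng11* was lower by -0.29 (standard error 0.11) and *Gabra6*, which is also one of the granule cell markers above, was higher by 0.99 (standard error 0.44). Neither passed without saline male 3, at -0.24 and 0.97, and *Gabra6* did not pass without saline males 1 and 2, at 0.78. In females, 0 of the 13 passed. In the interaction, 2 passed above 0, *Kcnj6* among them, and *Ndufa2*, *Ndufc2*, *Ndufc1*, and *Ndufb6* below 0, where 2.94% of all genes passed. Between the saline sexes, *Ndufa2* and *Ndufb6* were higher in males by 1.48 and 0.69 (adjusted *p* = 0.987 for each in edgeR's quasi-likelihood test). *Ndufb6* averaged 45.3 CPM in saline males and 27.4 to 33.7 CPM in the other groups. Without saline males 1 and 2, *Ndufa2* was at 0.31 in the interaction. *Ndufc2*, *Ndufc1*, and *Ndufb6* stayed negative there, at -0.43, -0.51, and -0.40, but no longer passed.

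Among 18 other genes of the Abhd family, 16 were tested. In females *Abhd1* was higher in morphine mice by 0.64 (standard error 0.25), at a mean of 1.79 CPM against 1.14 CPM, and in males or in both sexes combined none passed. Between the saline sexes, *Abhd8* and *Abhd17a* were higher in males by 1.65 (standard error 0.61) and 1.74 (standard error 0.67), and both passed in the interaction, at -1.55 and -1.76. Their interactions were -2.04 and -2.27 without saline male 3, where 24.1% of all genes passed. The direction turned without saline males 1 and 2, to 0.61 and 0.64.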

How the data were processed

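RNA-seq was performed on poly-A RNA of 12 brainstems, 1 lane, single-end. Trimming by the authors used Trimmomatic, alignment to mm10 used STAR, and counting over exons used featureCounts; versions and the strand setting are not given in the sources used here. The deposited values are counts per gene, whole numbers with totals from 27850565 to 48097947, and were used as raw counts. Labels gave the groups. Each library came from a separate animal.

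After filterByExpr and TMM normalization, edgeR 4.0.16 (R 4.3.3) gave quasi-likelihood tests in all 12 mice with sex as a covariate, within each sex, for the interaction of treatment and sex, and between saline sexes. Genes passed if *p* was under 0.05 before adjustment and the log2 fold change exceeded 0.26 in size, and Benjamini-Hochberg adjusted *p* values cover all genes tested. CPM use the TMM factors of the 12 libraries, and logs use a prior count of 2. Positions, lengths, and GC content came from GENCODE M21. Deviations of same-numbered libraries correlated between -0.64 and 0.25. The leading principal component held 68.6% of the variance, so these correlations cannot decide whether same-numbered mice shared a litter. The scripts were tested on simulated data.

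The 9 genes and all lists were chosen with earlier results of these data known. Named were the 9 genes, up to 5 genes with the smallest *p* of each pathway list among those that passed, the 5 genes most like *Cnr1* and most like the gene with the smallest sex-combined *p*, and markers of sex and tissue. Alternatives were DESeq2 1.42.0, edgeR with the size factors of DESeq2, total-count scaling, exactTest, 2 other filters on low counts (none, and at least 10 counts in every library), no covariate, the replicate block, contrasts from the fit of 12 mice, calls by *p* without a fold change, and each mouse left out in turn. Loess offsets (span 0.5) for GC content and length and the fit without saline males 1 and 2 were added after the data were seen.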

Additional observations from a re-analysis of the deposited data

Results flagged for a closer look

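In groups of 6 mice of one treatment, the highest or lowest library of a gene was set against its nearest neighbor by Dixon's test. Of 18 groups, 3 exceeded the 95% critical value. The nominal rate of about 1 in 20 groups holds for independent groups of normal values. Each group here joined both sexes, and many genes shared trends over the libraries. The share over all genes was not computed, so 3 of 18 cannot be read as an excess. *Daglb* was at 18.9 CPM in morphine male 6, with the next morphine mouse at 15.6 CPM. *Abhd12* was at 227.4 CPM in morphine female 3, with the next at 189.4 CPM. *Napepld* was at 16.5 CPM in morphine male 4, with the next at 18.2 CPM. Each of these differences is a single library, and none was tested further.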

How the results depend on the processing

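Over 765 pairs of a gene and an alternative in the 5 comparisons, 736 did not pass the thresholds, as reported, 23 passed in the same direction where the reported value did not, and 6 passed in the opposite direction. The 6 came from leaving out saline males 1 and 2: *Dagla* at 0.61 in the sex-combined comparison, *Dagla* at 1.27, *Daglb* at 0.89, and *Mgll* at 0.43 in males, and *Dagla* at 1.00 and *Daglb* at 0.81 in the interaction. The sign differed in 98 pairs, of which these 6 passed. No gene of the 9 passed in the reported fits, and the cause of the changes below was not tested. Without saline males 1 and 2, 2 of the 9 passed in the sex-combined comparison, 5 in males, and 4 in the interaction, with 2264, 6055, and 3635 genes passing in all against 221, 543, and 559. With GC and length offsets, 2 passed in males and 1 in the interaction, and 355, 2422, 1668, and 834 genes passed in the sex-combined, male, interaction, and saline sex comparisons, the last against 448. With no filter on low counts, 1 passed in females, 1 in the interaction, and 1 between saline sexes, and 754, 1094, 985, 1665, and 2047 genes passed in the sex-combined, female, male, interaction, and saline sex comparisons, where 328 had passed in females. With DESeq2, 1 of the 9 and 907 genes passed between saline sexes, and 218 genes passed in females with the contrast from 12 mice. Leaving out 1 mouse, 0 of the 9 passed in the sex-combined comparison, 0 to 1 in females, and 0 to 3 in males, the interaction, and between saline sexes, and the genes passing ranged from 177 to 458, 208 to 1482, 253 to 5341, 290 to 4695, and 124 to 6966 in these 5 comparisons. The 3 in each case came without saline male 3, and the 1 in females without saline female 4 or morphine female 3. Scaling by total counts gave 181 genes higher and 68 lower in the sex-combined comparison, 737 and 70 in males, and 569 and 132 in the interaction, against 113 and 108, 349 and 194, and 306 and 253. The replicate block, whose numbers join mice of opposite sex, left 0 of the 9 and 204 genes passing in the sex-combined comparison. The mean log2 ratio of 2-AG synthesis to hydrolysis genes was -3.15 in CPM and -4.21 in CPM per kb.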
